A study of Mus musculus with 7 samples.

Results

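The 8 genes described here are *Pvalb*, *Btbd11*, *Kcnc1*, *Kcnc2*, *Kcns3*, *Scn1a*, *Syt2* and *Vamp1*, a set that marks parvalbumin-positive, fast-spiking interneurons. They were selected by symbol from the 47729 genes of the count table, and all 8 were found and passed the filter on low counts in both genotypes. The set was drawn up with the genotype values of these same libraries in view, so the differences between genotypes are given for these genes as a description. Their standard errors and intervals describe the spread between libraries, and the number of them past the threshold used for all genes is printed only beside its background.

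The RNA came from mouse forebrain at postnatal day 15 and was sequenced in 4 control and 3 mutant libraries. Control animals were *Lhx6+/-* and mutant animals *Lhx6-/-* (allele *Lhx6tm2Vpa*), both F1(C57BL/6 X 129Sv) and each library a pool of 2 animals. The controls therefore also carry 1 mutant allele, and the mutants are constitutive nulls, not limited to interneurons. The count columns name a genotype and a library number (control 2, 3, 10 and 11, mutant 5, 12 and 13), which are used below, but not the sex or RNA quality of the pool. The 7 libraries held from 32556304 to 38069151 counts, and a gene at 0 could still have had 3 counts, equal to 0.0788 to 0.0921 CPM (counts scaled to a common library total). The first principal component (39.6% of the variance) set libraries 2, 3 and 5 apart from libraries 10 to 13, and the second (23.4%) set the genotypes apart. Nothing in the labels says what the runs of numbers stand for, and both runs hold both genotypes, so differences within each run are given beside those over all libraries.

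Fast-spiking interneurons are inhibitory cells of the cortex, hippocampus and striatum that arise in the medial ganglionic eminence, the embryonic domain whose postmitotic neurons require *Lhx6*, a LIM homeodomain transcription factor. They fire brief action potentials at high rates and release GABA onto the soma, proximal dendrites or axon initial segment of their targets. The genes here cover that physiology: a calcium buffer, potassium channels that end the spike quickly, the sodium channel that starts it, and the proteins that couple calcium to fast vesicle release.

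The targeted gene followed the labels. *Lhx6* (chr2:36081953-36105408 in GRCm38, minus strand) was at 615, 522, 476 and 522 normalized counts in control and at 70.9, 76.6 and 70.1 in mutant. Here and for every gene that follows, control values are in the order of libraries 2, 3, 10, 11 and mutant values in the order 5, 12, 13. Its log2 fold change, mutant relative to control, was -2.88 (SE 0.135, adjusted p = 5.99e-05, edgeR quasi-likelihood test with Benjamini-Hochberg adjustment), so 13.6% of the control count remained in the libraries labelled mutant. Normalized counts here are estimated counts per gene scaled to a common library size.

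The sequences before the start of *Pvalb*, the gene that differed most, and of *Syt2* and *Btbd11*, the only 2 with a searched motif in a window, are shown because these genes were lower in mutants together. All 8 genes matched RefSeq, with 15 start windows of 300 bases, each reaching from 250 bases before a start to 50 after it. The lines give, from the window nearest the annotated gene start, the 250 bases before the start, 5′ to 3′ on the gene's own strand, in GRCm38.p6: *Pvalb* at chr15:78206401-78206650 (minus strand), *Syt2* at chr1:134646362-134646611 (plus strand) and *Btbd11* at chr10:85386564-85386813 (plus strand). Capitals mark a match to 1 of 3 motifs searched on both strands.
Pvalb: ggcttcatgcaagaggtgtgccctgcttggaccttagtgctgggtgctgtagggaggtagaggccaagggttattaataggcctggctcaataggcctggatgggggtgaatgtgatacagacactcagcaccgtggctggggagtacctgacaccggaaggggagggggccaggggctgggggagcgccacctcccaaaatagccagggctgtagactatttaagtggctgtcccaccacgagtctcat
Syt2: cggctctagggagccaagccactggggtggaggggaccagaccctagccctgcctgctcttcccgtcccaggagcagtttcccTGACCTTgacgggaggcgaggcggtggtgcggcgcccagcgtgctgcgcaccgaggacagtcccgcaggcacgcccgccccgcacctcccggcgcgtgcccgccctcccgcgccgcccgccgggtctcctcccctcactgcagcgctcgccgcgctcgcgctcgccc
Btbd11: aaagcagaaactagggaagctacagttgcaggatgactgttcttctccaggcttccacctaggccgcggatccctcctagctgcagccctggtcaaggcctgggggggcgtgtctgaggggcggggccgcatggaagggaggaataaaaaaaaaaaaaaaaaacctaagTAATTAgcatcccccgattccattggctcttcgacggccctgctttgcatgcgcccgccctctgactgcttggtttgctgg

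The motifs, chosen after the expression values had been seen, were TAATTA (the core read by many homeodomain proteins), AAGGTCA (the half-site read by estrogen-related receptors) and TATAAA (the TATA box). TAATTA lies 81 bases before the start of *Btbd11*, and AAGGTCA lies on the opposite strand 167 bases before that of *Syt2*. The other 13 of the 15 windows, that of *Pvalb* included, hold none of these letters. Over the 32851 mouse windows of the same length, 5.29% hold TAATTA, 4.72% hold AAGGTCA and 13.6% hold TATAAA. A match is only a run of letters, and the libraries hold no measurement of binding.

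*Pvalb* (ENSMUSG00000005716, chr15:78191114-78206400, minus strand) encodes parvalbumin, the cytosolic calcium buffer that names the cell type. It was at 753, 1094, 994 and 881 normalized counts in control and at 80.5, 143 and 115 in mutant. The highest mutant library was far below the lowest control library. The mean was 931 ± 147 (SD, n = 4) in control and 113 ± 31.2 (n = 3) in mutant, 12.1% of control, with a log2 fold change of -3.05 (SE 0.219). Among the 8 genes this was the greatest difference, with -3.46 in libraries 2, 3 and 5 and -2.86 in libraries 10 to 13. Library 5 was the lowest of the mutants in *Pvalb*, and library 2 the lowest of the controls.

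**Figure D1:**
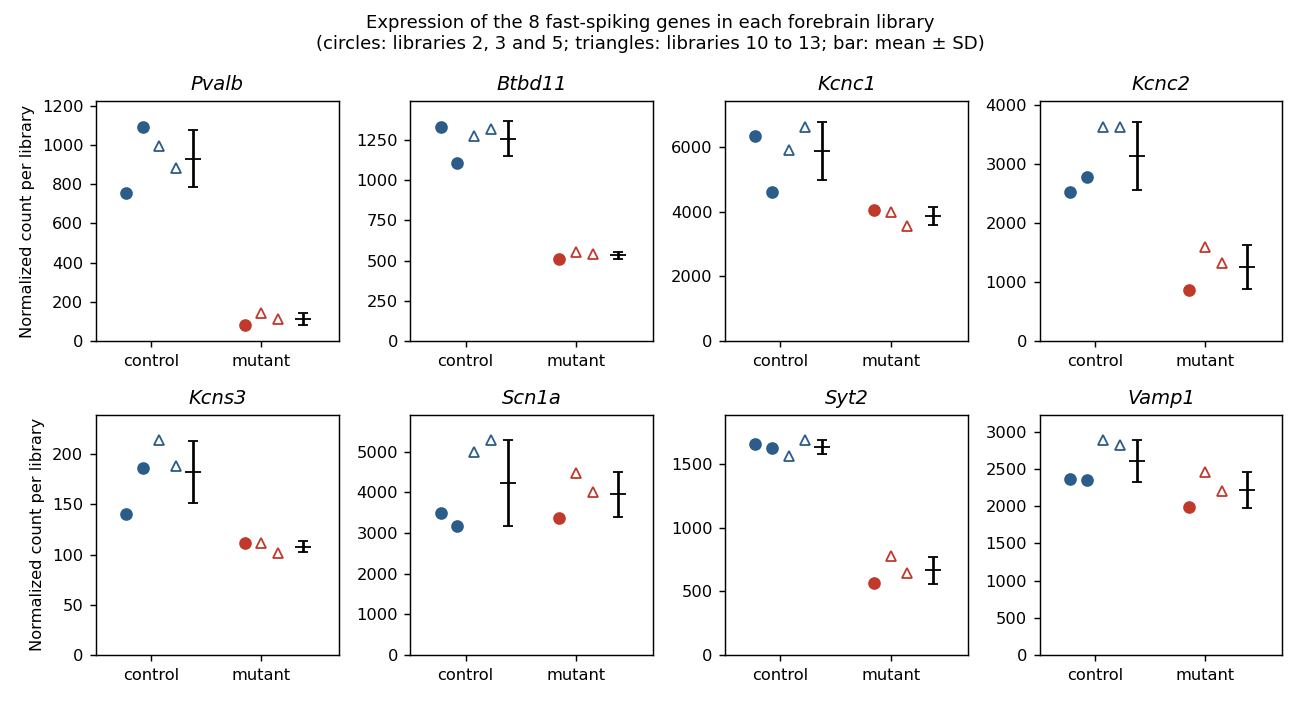
Each panel plots the normalized count (vertical axis, starting at 0) of 1 gene in the 4 control (blue) and 3 mutant (red) libraries, with the mean and SD as a black bar; filled circles are libraries 2, 3 and 5 and open triangles libraries 10 to 13. The genotypes are apart in 6 panels, with *Pvalb* at 753 to 1094 in control and 80.5 to 143 in mutant, and overlap for *Scn1a* and *Vamp1*. Within each run of libraries the *Vamp1* mutants lie below the controls.

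Kv3 channels open only at depolarized voltages and close fast, which keeps spikes short. *Kcnc2* (ENSMUSG00000035681, chr10:112271123-112466304, plus strand) encodes Kv3.2 and was at 2530, 2777, 3632 and 3639 normalized counts in control and at 861, 1591 and 1323 in mutant. Within each genotype, libraries 10 to 13 were the higher ones, and the genotypes did not overlap. The mean was 3144 ± 576 in control and 1258 ± 369 in mutant, 40.0% of control, with a log2 fold change of -1.32 (SE 0.219). The difference was -1.62 in libraries 2, 3 and 5 and -1.31 in libraries 10 to 13.

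*Kcnc1* (ENSMUSG00000058975, chr7:46396497-46438375, plus strand) encodes Kv3.1, which is also used by neurons outside the cortical interneurons. It had 6363, 4619, 5923 and 6642 normalized counts in control and 4060, 3992 and 3553 in mutant. Control library 3 came close to the mutants, without overlap. The mean was 5887 ± 895 in control and 3868 ± 275 in mutant, 65.7% of control, a log2 fold change of -0.61 (SE 0.130), with -0.42 in libraries 2, 3 and 5 and -0.73 in libraries 10 to 13.

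*Kcns3* (ENSMUSG00000043673, chr12:11090202-11150842, minus strand) encodes Kv9.3, a subunit that forms no channel alone and modifies Kv2 channels. This gene, the lowest of the 8, had 140, 187, 214 and 188 normalized counts in control and 111, 112 and 101 in mutant. The 3 mutant libraries lay close together, below all controls. The mean was 182 ± 30.6 against 108 ± 5.86, 59.3% of control, a log2 fold change of -0.75 (SE 0.167), with -0.54 in libraries 2, 3 and 5 and -0.91 in libraries 10 to 13.

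*Scn1a* (ENSMUSG00000064329, chr2:66270778-66440840, minus strand) encodes Nav1.1, the sodium channel on which fast-spiking cells depend and which other neurons also carry. It had 3501, 3164, 4988 and 5283 normalized counts in control and 3379, 4488 and 4012 in mutant. Here the run of library numbers, not the genotype, put the libraries in order within the controls, and all 3 mutant libraries lay inside the control range. The mean was 4234 ± 1057 in control and 3959 ± 556 in mutant, with a log2 fold change of -0.10 (95% interval from -0.53 to 0.34). The sign differed between the runs, with 0.022 in libraries 2, 3 and 5 and -0.26 in libraries 10 to 13. Of the 36-base words in its transcripts, 6.08% occur in other genes, the highest share of the 8, so a few of its reads could have been split with related channels.

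*Syt2* (ENSMUSG00000026452, chr1:134646677-134762593, plus strand) encodes synaptotagmin 2, the fast calcium sensor of release at parvalbumin-positive terminals. It had 1659, 1625, 1562 and 1686 normalized counts in control and 569, 780 and 645 in mutant. The 4 controls were the tightest of the set, with a coefficient of variation of 3.28%, and the mutants lay far below them. The mean was 1633 ± 53.6 in control and 665 ± 107 in mutant, 40.7% of control, with a log2 fold change of -1.30 (SE 0.112). Within the runs the difference was -1.53 in libraries 2, 3 and 5 and -1.18 in libraries 10 to 13.

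*Vamp1* (ENSMUSG00000030337, chr6:125215551-125245964, plus strand) encodes synaptobrevin 1, a vesicle protein of the fusion complex. It had 2371, 2358, 2884 and 2815 normalized counts in control and 1989, 2463 and 2197 in mutant. Mutant library 12 lay above the 2 lowest controls, libraries 2 and 3 of the other run, so the genotypes overlapped over all 7 libraries. Within each run, every mutant library lay below every control library. *Vamp1* was called lower (edgeR) in libraries 10 to 13 alone and with a term for the run of library numbers, but not over all libraries. The mean was 2607 ± 282 in control and 2216 ± 238 in mutant, with a log2 fold change of -0.23 (95% interval from -0.48 to 0.015). The differences within the runs were -0.25 and -0.28, in libraries 2, 3 and 5 and libraries 10 to 13.

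*Btbd11* (ENSMUSG00000020042, chr10:85386814-85660292, plus strand) encodes an ankyrin repeat and BTB domain protein found at excitatory synapses onto inhibitory neurons. It had 1332, 1104, 1276 and 1320 normalized counts in control and 509, 552 and 539 in mutant. The mutant libraries lay close together and no control came near them. The mean was 1258 ± 106 in control and 533 ± 22.1 in mutant, 42.4% of control, with a log2 fold change of -1.24 (SE 0.0956). The runs gave -1.25 and -1.24, the closest match of the 8 genes.

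The mean was lower in mutant than in control for 8 of 8 genes, and in 6 of 8 every mutant library lay below every control library, which held for 9% of the 19684 genes tested (19.7% were apart in either direction). The same 6 were called lower at an adjusted p of 0.05 (edgeR), against 1.87% of all tested genes called lower, 2.97% called higher and 4.85% called in either direction. Nothing is drawn from these counts, since the genes were picked with this contrast known. Over the 8 genes the median log2 fold change came to -0.997, and over all tested genes to -0.013. Within libraries 2, 3 and 5 the median of the 8 was -0.89, and within libraries 10 to 13 it was -1.04. Without mutant library 13, 3 of the 8 genes were called (*Pvalb*, *Btbd11* and *Syt2*), and leaving out any other single library left 4 or 5. In libraries 10 to 13 alone 7 were called lower, *Vamp1* included, where 1922 of all genes were called. With a term for the run of library numbers the same number, 7, was called lower, where 2205 of all genes were called. In tissue RNA, fewer cells of a type and less RNA per cell cannot be told apart.

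**Figure D2:**
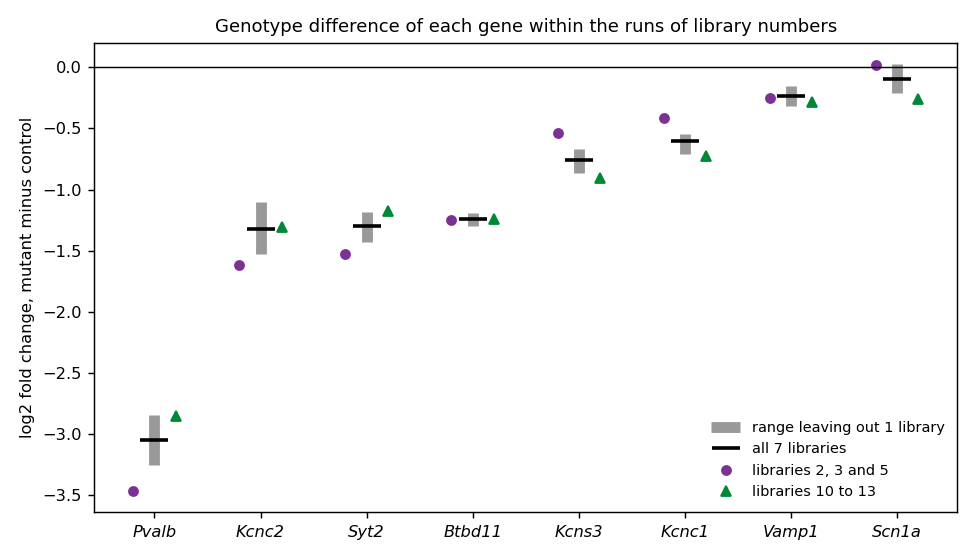
The log2 fold change, mutant minus control, of each of the 8 genes (horizontal axis, from the most negative) is plotted over all 7 libraries (black line), leaving out 1 library at a time (grey bar, lowest to highest), within libraries 2, 3 and 5 (circle) and within libraries 10 to 13 (triangle). *Pvalb* ranges from -3.46 to -2.84, *Btbd11* moves least between the runs, and *Scn1a* lies on both sides of 0.

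Per kilobase of annotated exon, the order of the genes changed between genotypes. The annotated length need not be that of the transcripts expressed, which was not measured. The order of the genes and the family shares below rest on it. In control, *Pvalb* led with 894 ± 141 normalized counts per kilobase, followed by *Kcnc1* (645 ± 98.1), *Kcnc2* (507 ± 92.9), *Scn1a* (380 ± 94.8), *Vamp1* (256 ± 27.7), *Syt2* (214 ± 7.02), *Btbd11* (125 ± 10.5) and *Kcns3* (59.6 ± 10.0). Among neighbours in this order, the ranges of mean ± SD overlapped for *Kcnc1* and *Kcnc2* and for *Kcnc2* and *Scn1a*. In mutant the order per kilobase was *Kcnc1* (424 ± 30.2), *Scn1a* (355 ± 49.9), *Vamp1* (218 ± 23.4), *Kcnc2* (203 ± 59.6), *Pvalb* (108 ± 30.0), *Syt2* (87.0 ± 14.0), *Btbd11* (53.1 ± 2.2) and *Kcns3* (35.3 ± 1.92). *Pvalb* thus moved from the first place to the fifth, where its range overlapped that of *Syt2*. The ranges of *Kcnc1* and *Scn1a*, and those of *Vamp1* and *Kcnc2*, also overlapped in mutant.

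Of the shares of 3 Kv3 genes in their summed transcripts, those of *Kcnc2* and *Kcnc4* were apart between genotypes and that of *Kcnc1* overlapped. Of the counts per kilobase summed over *Kcnc1*, *Kcnc2* and *Kcnc4* (Kv3.4), *Kcnc2* made up 18.6, 23.4, 26.2 and 25.8% in control and 8.81, 14.6 and 14.1% in mutant. The share of *Kcnc2* did not overlap between genotypes, at 23.5 ± 3.46% in control and 12.5 ± 3.23% in mutant. *Kcnc1* made up 29.8 ± 2.61% in control and 26.3 ± 1.69% in mutant, with overlap. The share of *Kcnc4* was 46.7 ± 3.77% in control and 61.2 ± 1.60% in mutant, again apart. The counts of *Kcnc4* themselves passed no test, with a log2 fold change of -0.03 (adjusted p = 0.919, edgeR), whose sign turned in some alternatives.

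**Figure D3:**
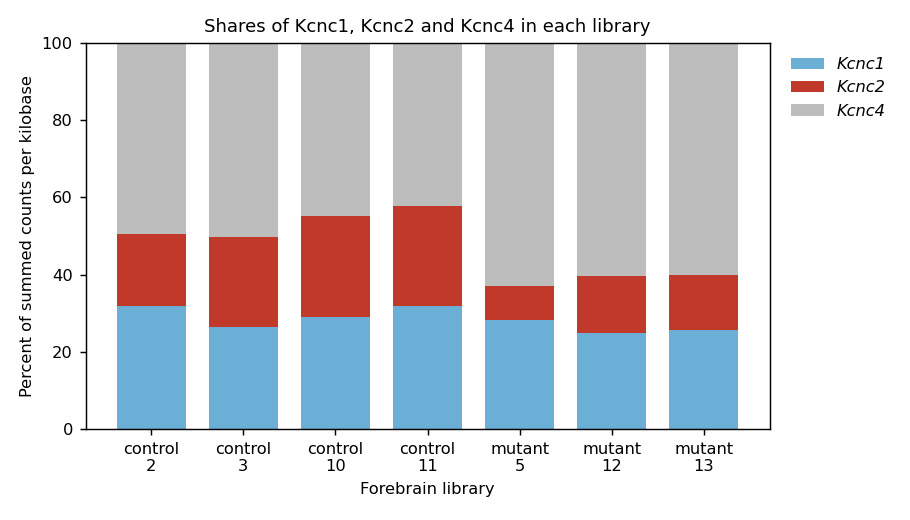
Stacked bars give, for each of the 7 libraries, the percent of the counts per kilobase summed over 3 genes that came from *Kcnc1* (light blue), *Kcnc2* (red) and *Kcnc4* (light grey). The *Kcnc2* band is 18.6 to 26.2% of the bar in control and 8.81 to 14.6% in mutant, and the *Kcnc4* band is 42.3 to 50.1% in control and 60.1 to 63.0% in mutant.

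The same view separates the release genes. *Syt2* made up 3.56 ± 0.449% of the counts per kilobase of *Syt1* and *Syt2* in control and 1.76 ± 0.0852% in mutant, without overlap. *Vamp1* made up 2.57 ± 0.540% of *Vamp1* and *Vamp2* in control and 2.26 ± 0.311% in mutant, with overlap. *Scn1a* held 16.1 ± 1.76% of the neuronal sodium channel alpha subunits (*Scn1a*, *Scn2a1*, *Scn3a* and *Scn8a*) in control and 15.7 ± 0.463% in mutant, also with overlap. These family shares were added after the expression values had been seen.

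**Figure D4:**
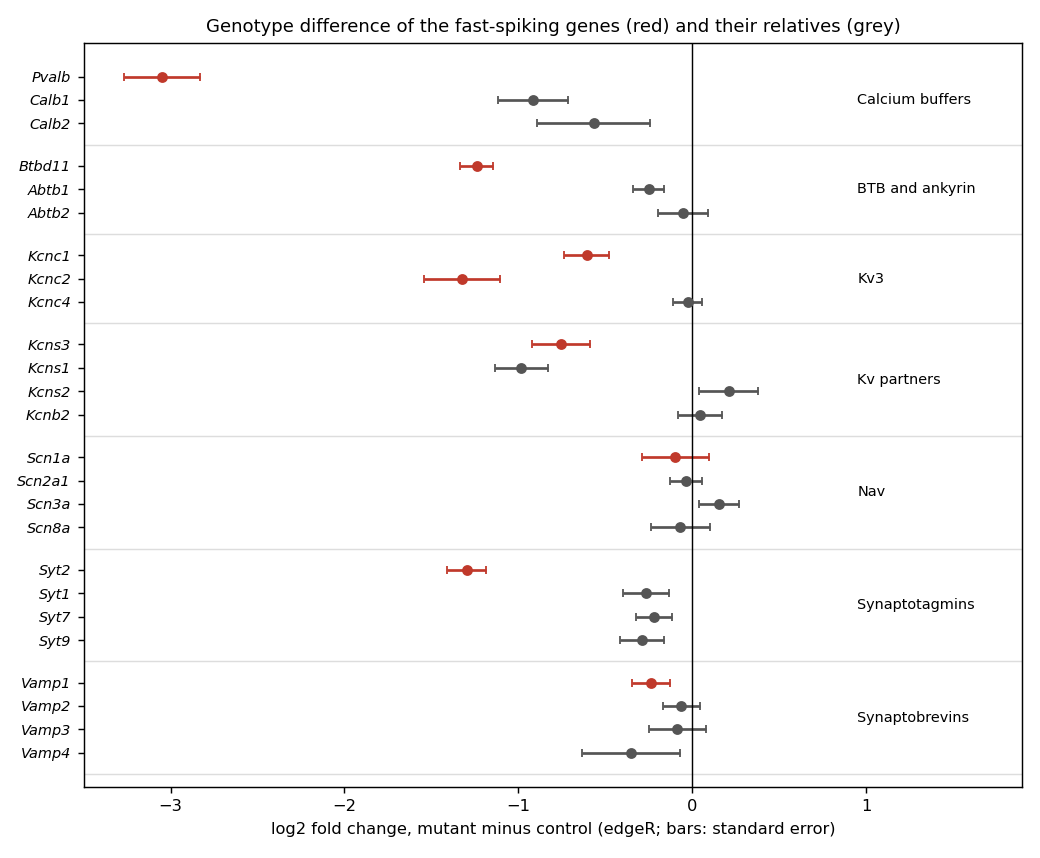
The log2 fold change, mutant minus control, with its standard error is plotted for the 8 genes (red) and for relatives of each (grey), grouped by family. *Pvalb*, *Btbd11*, *Kcnc2* and *Syt2* lie at -1.24 or below, and of the relatives drawn here those called lower are *Calb1* at -0.92 and *Kcns1* at -0.98.

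Relatives and partners of the 8 genes were taken from 6 lists with 62 genes, all tested. Of these, 3 were called higher and 9 lower (edgeR, adjusted over all 19684 tested genes, of which 2.97% were called higher and 1.87% lower). The median log2 fold change was -0.10, and the other 50 passed in neither direction. This count leaned on single libraries: it was 1 without mutant library 13, 4 without mutant library 12, 5 without mutant library 5 and 7 without control library 2 or control library 10, against 12 over all libraries. Among 10 potassium channel subunits, edgeR called 1 higher and 2 lower (5 at an unadjusted p of 0.05, while DESeq2 called 3 and limma-voom 3). *Kcns1* (Kv9.1), a silent subunit like *Kcns3*, fell by 0.98 on the log2 scale (adjusted p = 0.00993, edgeR), from 487 ± 51.8 to 246 ± 45.8 normalized counts. *Kcnab3*, an auxiliary Kv1 subunit, fell by 0.73 (adjusted p = 0.0101, edgeR), and *Kcna6* (Kv1.6) rose by 0.36 (adjusted p = 0.0306, edgeR), although *Kcna6* shares 39.6% of its exons with other annotated genes. *Kcnb2*, a Kv2 subunit of the kind that *Kcns3* modifies, had a log2 fold change of 0.05 and was not called.

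Among 8 sodium channel subunits, edgeR called none higher and 1 lower (3 at an unadjusted p of 0.05, while DESeq2 called 3 and limma-voom 1). *Scn3b*, a beta subunit, fell by 0.70 (adjusted p = 0.00499, edgeR), with 4216 to 5092 normalized counts in control and 2720 to 3111 in mutant. *Scn2b* and *Scn9a* were at -0.40 (adjusted p = 0.0665, edgeR) and -0.76 (adjusted p = 0.0859, edgeR), both without overlap between genotypes. The larger alpha subunits of the brain gave log2 fold changes of -0.03 for *Scn2a1* and -0.07 for *Scn8a*, both turning sign when single libraries were left out.

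Of 18 release genes edgeR called none higher and 1 lower (5 at an unadjusted p of 0.05, while DESeq2 called 2 and limma-voom 1): *Stx1a* (syntaxin 1A) fell by 0.43 (adjusted p = 0.012, edgeR). *Sv2c*, a vesicle glycoprotein, was at 0.55 (adjusted p = 0.0573, edgeR), with every mutant library above every control library. *Syt1*, the main calcium sensor of forebrain release, had a log2 fold change of -0.26 (adjusted p = 0.341, edgeR; 0.0174 with a term for the run of library numbers) and *Vamp2* one of -0.06 (adjusted p = 0.832, edgeR), whose sign turned within libraries 10 to 13. Of 7 calcium-binding proteins edgeR called none higher and 1 lower (3 at an unadjusted p of 0.05, while DESeq2 called 2 and limma-voom 1): *Calb1* (calbindin) fell by 0.92 (adjusted p = 0.0371, edgeR). *Calm3*, a calmodulin gene, was at -0.41 (adjusted p = 0.0921, edgeR) and *Scgn* (secretagogin) at 1.41 (adjusted p = 0.0715, edgeR), both without overlap between genotypes. *Ocm*, the closest relative of *Pvalb*, was at a mean of 11.2 ± 6.74 in control and 8.67 ± 6.11 in mutant. The ankyrin and BTB paralogs of *Btbd11*, *Abtb1* and *Abtb2*, had log2 fold changes of -0.25 and -0.05 and neither was called by edgeR, DESeq2 or limma-voom (*Abtb1* alone had an unadjusted p under 0.05), and the sign of *Abtb2* turned without mutant library 5.

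Of another 17 genes known from parvalbumin-positive cells, edgeR called 2 higher and 4 lower, and 11 were not called. Their median log2 fold change was -0.20. Without adjustment 10 passed the same threshold, while with adjustment DESeq2 called 7 and limma-voom 5. *Acan*, which encodes aggrecan of the perineuronal net, rose by 0.99 (adjusted p = 0.0144, edgeR), and *Tac1*, a tachykinin precursor, rose by 0.83 (adjusted p = 0.0333, edgeR). The RNA came from forebrain tissue, and in which cells these genes rose was not tested. The neurofilament gene *Nefl* fell by 0.45 (adjusted p = 0.0132, edgeR) and *Tmem132c*, a membrane protein gene, by 0.71 (adjusted p = 0.0228, edgeR), while *Nefm* (-0.79) and *Erbb4* (-0.70), the neuregulin receptor of these interneurons, were also called lower. *Nefl* and *Nefm* share 32.8% and 19.2% of their exons with other annotated genes. *Ppargc1a* and *Esrrg*, which encode regulators of metabolism in fast-spiking cells, were at -0.07 and -0.29 and were not called. The calls of *Calb1*, *Kcna6*, *Tac1*, *Tmem132c*, *Nefm* and *Erbb4* were each lost when one or another of several libraries was left out. Of 17 alternatives, *Stx1a* and *Nefl* were each called in 14, *Acan* in 15, and *Kcns1* and *Kcnab3* each in 16. *Scn3b* was called in all 17.

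Markers of the cells and regions in the dissection were examined beside these values. Of 7 markers shared by GABAergic neurons edgeR called none (2 at an unadjusted p of 0.05, while DESeq2 called 2 and limma-voom 0), with summed levels of 509 to 606 CPM in control and 602 to 804 in mutant. *Gad1*, *Gad2* and *Slc32a1* were at log2 fold changes of 0.50, 0.48 and -0.04, the last with a sign that turned in some alternatives. *Gad1* and *Gad2* were called higher by edgeR in libraries 10 to 13 alone (adjusted p = 0.00777 and 0.00496) and with a term for the run of library numbers (0.00586 and 0.00768), and *Gad2* also without mutant library 5 (0.0369). *Slc32a1* shares 24.9% of its exons with other annotated genes. Scaled to the *Slc32a1* count of the same library, *Pvalb* amounted to 23.7 ± 6.87% in control and 2.83 ± 0.213% in mutant, and *Syt2* to 41.0 ± 5.75% and 17.0 ± 1.28%. On that scale *Pvalb*, *Btbd11*, *Kcnc1*, *Kcnc2* and *Syt2* did not overlap between genotypes, and *Kcns3*, *Scn1a* and *Vamp1* did. Scaled to *Gad2*, none of the 8 overlapped, *Scn1a* included, at 72.9 ± 12.1% in control and 49.7 ± 2.24% in mutant. The mean of *Gad2* itself in mutant was 139% of control, and a higher *Gad2* lowers every ratio on this scale. The counts of *Scn1a* and *Vamp1* themselves were at 93.5 and 85.0% of control and overlapped between genotypes. Both scalings were added after the values had been seen.

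Of 6 markers of somatostatin cells, the other class of interneuron from the same domain, 5 fell and 1 (*Crhbp*) rose, and the summed level was 314 to 371 CPM in control and 140 to 154 in mutant. Of 6 oligodendrocyte markers 3 fell (*Mbp*, *Mag* and *Cnp*, by 0.53, 0.54 and 0.48), with summed levels of 6570 to 8456 and 4709 to 5787 CPM. The 3 markers of the thalamic reticular nucleus, whose neurons also hold parvalbumin, summed to 10.9 to 15.1 in control and 28.2 to 40.8 in mutant, and *Ecel1* and *Spp1* rose, by 1.83 and 1.32. Of 6 cerebellar markers, 5 were tested and none called, with a sum of 26.8 to 32.9 in control and 21.8 to 24.6 in mutant, and *Gabra6* of the granule cells was at 0 in 6 libraries. Of 14 brainstem markers, 3 were tested and none called, with a sum of 3.23 to 4.51 and 4.95 to 5.87, and *Hoxa4* and *Hoxa5* were at 0 in all 7 libraries. The part of these cell types in the values of the 8 genes was not tested.

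Calls in the remaining lists were few. Among 8 cortical excitatory markers *Rorb* fell by 0.47 (summed 2330 to 2655 CPM in control, 2524 to 3061 in mutant), and among 8 striatal markers *Penk* rose by 1.196 (383 to 570 against 545 to 774). *Slc12a5* fell by 0.44 among 5 genes of neuronal maturation (4824 to 6287 against 4156 to 4668). Of 17 alternatives, *Slc12a5* was called in 10 and *Penk* in 15. None was called among 5 astrocyte markers (4994 to 7568 against 7893 to 9381), 5 microglial markers (338 to 354 against 281 to 341), 3 endothelial markers (108 to 142 against 143 to 170), 5 markers of immature neurons (914 to 1386 against 910 to 1072) or 6 tested markers of the thalamus (84.2 to 105 against 85.9 to 98.1). At an unadjusted p of 0.05, edgeR gave 3 astrocyte, 2 microglial, 2 endothelial, 1 immature neuron and 1 thalamic gene, and 1 cerebellar and 2 brainstem genes of the lists above. With adjustment, DESeq2 called 2 astrocyte, 1 cerebellar and 2 brainstem genes and limma-voom 1 brainstem gene, and neither called a microglial, endothelial, immature neuron or thalamic gene. Their part in the values of the 8 genes was not tested either.

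The genes whose profile over the 7 libraries was nearest to that of *Pvalb* were ranked by the root mean square difference of log2 counts, each relative to its own control mean, among 14974 genes with a mean of at least 50 normalized counts. *Lhx6* was first, at a difference of 0.336, and *Sst*, the somatostatin gene, second, at 0.380. *Sst* was at 5964, 6248, 4649 and 4564 normalized counts in control and at 670, 554 and 542 in mutant. Next came *Fgf10* (0.642), *Lrrc38* (0.724), *Ngb* (0.731), *Tmem215* (0.788), *Gm42830* (0.855) and *Lefty1* (0.858), with log2 fold changes between -2.22 and -1.80. *Fgf10* encodes a growth factor, *Lrrc38* an auxiliary subunit of BK potassium channels and *Ngb* neuroglobin. *Gm42830* and *Lefty1* share 5.76% and 23.5% of their 36-base words with other genes. Of the other fast-spiking genes, *Kcnc2* ranked 21, *Syt2* 24, *Btbd11* 33, *Kcns3* 138, *Kcnc1* 313, *Vamp1* 1931 and *Scn1a* 5794. The ranking uses the same libraries as the fold changes and is a description of them. Each profile is relative to its control mean, so the size of the genotype difference enters the distance. The ranks of the other fast-spiking genes follow the order of their log2 fold changes. Within the controls, library 2 was the highest in *Lhx6* (615) and the lowest in *Pvalb* (753).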

How the data were processed

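Total RNA of P15 forebrain was made into TruSeq libraries, 4 *Lhx6+/-* and 3 *Lhx6-/-*, from pools of 2 animals. The authors trimmed the reads with cutadapt 1.9.1, aligned them with Bowtie2 2.2.9 to transcripts of GRCm38 (Ensembl release 84) and deposited the expected counts per gene given by RSEM 1.2.31, without normalization. Because RSEM divides reads that fit several genes, genes with close copies are less certain, as are genes that overlap others: whether counting used the strand is not given in the sources used here. The deposited DESeq2 comparison of the genotypes (fold change, standard error, Wald statistic and p-values) was not used, except for its gene symbols. Columns of per-sample values left unused numbered 0.

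Expected counts, of which 32.9 to 36.0% per library were not whole, were rounded. The 19684 genes that reached 10 counts in 3 or more libraries were scaled by TMM (factors 0.976 to 1.03) and tested with the quasi-likelihood F test of edgeR 4.0.16 (R 4.3.3), with no covariate, Benjamini-Hochberg adjustment over all tested genes and a threshold of 0.05. limma 3.58.1 and DESeq2 1.42.0 served as alternatives. The code was tested on simulated counts. Counting error alone was exceeded in every pair of libraries of a genotype (chi-square per degree of freedom 9.93 to 70.4), so each library was 1 replicate. p-values measure the spread between pools, and intervals and floors that rest on a count cover counting error only. Exon lengths came from the deposited annotation, promoter windows from RefSeq (GRCm38.p6), and words of 36 bases shared between genes from GENCODE M21 transcripts.

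The 8 genes, the lists and the tests were chosen with earlier results of these data known. Named were the 8 genes, *Lhx6*, up to 4 genes with the smallest p-values of each list, paralogs of the 8 genes, and the 8 genes nearest to *Pvalb*. A few genes of the lists are not reported here and were left out of the lists' counts and sums. Genes named beyond this rule were chosen after their values were seen. Alternatives were other scalings (RLE, upper quartile), filters and tools, unrounded counts, thinning to the smallest library, a term for the run of library numbers, each run alone, and leaving out each library.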

Additional observations from a re-analysis of the deposited data

Results flagged for a closer look

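Among 45 named genes, the 4 control libraries of 3 held a library far from the rest, by the gap to its neighbour over the whole range (above Dixon's 95% critical value), and chance gives about 1 such gene in 20. *Abtb2* (0.882) had 755 normalized counts in control library 3 and 1028 to 1064 in the others. *Nefl* (0.850) had 19631 in control library 3 and 18100 to 18330 in the others, and *Spp1* (0.860) had 152 in control library 10 and 91.4 to 99.8 in the others. None of the 8 fast-spiking genes stood out in this way. Groups of 3 mutant libraries were not examined.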

How the results depend on the processing

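No paired analysis was possible because the count columns carry library numbers and not the replicate numbers of the labels. Over all genes 954 were called, against 1696 with DESeq2, 1922 in libraries 10 to 13 alone, 2205 with a term for the run of library numbers, and from 302 to 971 leaving out 1 library: 302 without mutant library 13, 387 without mutant library 12, 458 without mutant library 5, 513 without control library 10 and 589 without control library 11. In the related lists 12 genes were called, against 23 in libraries 10 to 13 alone, 21 with the run term and from 1 to 11 leaving out 1 library. The count of the 8 fast-spiking genes called lower was 6, and ranged from 3 to 5 leaving out 1 library and from 5 to 7 otherwise, where the seventh was *Vamp1* in libraries 10 to 13 alone and with the run term. Their median log2 fold change stayed between -1.04 and -0.89. The sign turned only for genes near 0. In libraries 10 to 13 alone *Kcnc4* was at 0.0071, *Vamp2* at 0.047 and *Slc32a1* at 0.0072. Leaving out 1 library gave *Kcnc4* from -0.079 to 0.033 (also 0.014 without control 2), *Slc32a1* from -0.19 to 0.12 (also 0.032 without control 11), *Scn2a1* from -0.088 to 0.026 (also 0.00013 without control 10), *Scn8a* from -0.17 to 0.063 (also 0.034 without control 11) and *Abtb2* from -0.15 to 0.073. *Scn1a* was at 0.022 in libraries 2, 3 and 5 and at most 0.027 leaving out 1 library. A fit without 1 library has fewer samples, and the cause of the other moves was not tested. Libraries 2, 3 and 5 alone have 1 mutant and gave values without a test.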
